A study of Mus musculus with 17 samples.

Results

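The immunoproteasome and MHC class I genes described here are 10 genes of the route that cuts intracellular proteins into peptides and shows them at the cell surface. They were chosen by symbol, and each symbol was matched to 1 of the 43430 Ensembl gene IDs of both count tables. They are Psmb8, Psmb9 and Psmb10 (inducible catalytic subunits of the proteasome), Psme1 and Psme2 (the alpha and beta subunits of the PA28 activator), Tap1 and Tap2 (the peptide transporter), Tapbp (tapasin), B2m (beta-2 microglobulin) and H2-K1 (a class I heavy chain).

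RNA was sequenced from alveolar type 2 (AT2) cells of the lung, which make surfactant, sorted by flow cytometry from C57BL/6J mice aged 2 months. The vehicle and ISRIB groups (4 libraries each, poly(A) selected, 3 ng of RNA) were collected from uninjured mice 24 h after dosing. ISRIB is a small molecule that restores the translation initiation factor eIF2B under the integrated stress response. The naive group (4 libraries) and the bleomycin group (5 libraries) were made from 0.35 ng of total RNA, the latter 14 days after bleomycin, a drug that injures the lung and is used as a model of fibrosis. All 9 of these total-RNA libraries also carry a vehicle or saline label, so the bleomycin comparison is within vehicle-treated mice, and no library combines bleomycin with ISRIB. The labels say nothing of genetic changes, of sex or of pooling, and nothing says that replicates came from separate animals, so p-values measure the spread between these libraries.

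Cells replace the standard catalytic subunits of the proteasome (Psmb6, Psmb7 and Psmb5) with Psmb9, Psmb10 and Psmb8 when interferon-gamma or other inflammatory signals are present, and PA28 caps the barrel-shaped core. The resulting peptides cross into the endoplasmic reticulum through the Tap1 and Tap2 transporter, where tapasin holds the empty heavy chain and B2m next to the transporter until a peptide binds. Interferon induces many of these genes together, through interferon regulatory factors and the class I transactivator NLRC5.

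Control regions of these genes are shown first because 7 of the 10 genes were called higher after bleomycin. RefSeq promoter windows (GRCm38.p6, 250 bases before to 50 bases after each start) were found for 9 of the 10 genes, in 11 windows, and none was found for Tap2. Each window was searched on both strands for 4 sets of letters. These were GAAANNGAA (the paired sites of the interferon-stimulated response element, bound by interferon regulatory factors), TGACGTCA (the cyclic AMP response element), CCAAT (the core of the Y box bound by NF-Y) and GGGANNTTC (a kappa B pattern). In the stretches below, capitals mark the matches.
B2m: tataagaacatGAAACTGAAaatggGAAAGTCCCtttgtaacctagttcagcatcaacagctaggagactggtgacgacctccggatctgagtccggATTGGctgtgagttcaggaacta
H2-K1: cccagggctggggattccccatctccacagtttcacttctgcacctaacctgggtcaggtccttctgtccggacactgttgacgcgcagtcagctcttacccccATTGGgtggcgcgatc
The B2m stretch (chr2:122147537-122147656, plus strand) covers 150 to 31 bases before its start and held 3 kinds of match, an interferon-response pair at 139 to 131 bases, a kappa B pattern at 125 to 117 bases and a Y box core at 53 to 49 bases. The H2-K1 stretch (chr17:34000348-34000467, minus strand) ends 1 base before the more upstream of its starts and held a Y box core at 16 to 12 bases. No GENCODE M21 exon overlapped either stretch.

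A gene was counted if any of its windows held a match, while the shares over all genes are of single windows, so these measures differ. An interferon-response pair was present for 2 of the 9 genes (B2m and Psme1) against 8.56% of 32851 windows of all genes. The Psme1 match lay 10 to 18 bases after its start. The kappa B pattern was found for 1 of 9 (B2m) against 3.94% of windows, and the cyclic AMP element for 0 of 9 against 1.79%. A Y box core was found for 5 of 9 (B2m, H2-K1, Tapbp, Psmb9 and Tap1) against 37.4%. Psmb9 and Tap1 are transcribed away from each other and their windows share 275 bases, so their Y box core is a single site (chr17:34187334-34187338). A match is a description of letters and says nothing of binding in these cells. Only these exact letters were counted, so the lack of a match does not show that a gene lacks such an element. The H2-K1 stretch, for example, holds ggggattcccc and agtttcacttct. These resemble the kappa B and interferon-response patterns but do not match the letters searched, so they were neither counted nor marked.

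The bleomycin comparison asked what injury had changed in AT2 cells by day 14. All 10 genes had a higher mean after bleomycin, and 7 of them passed the test: B2m, H2-K1, Tap1, Psmb8, Psme1, Tapbp and Tap2. The fitted log2 fold changes ran from 0.36 for Psmb10 to 1.33 for B2m with a median of 0.75, while the median of all 11223 genes tested was 0.0026. Of all genes tested, 11.2% were called higher and 9.31% were called lower at a Benjamini-Hochberg adjusted p under 0.05 (edgeR). For 5 of the 10 genes the lowest bleomycin library was above the highest naive one, against 10.4% of all genes tested. Values below are CPM (reads per gene scaled to a common library size with TMM factors), given in the order of the replicate numbers. Each is followed by the group means with SD (n = 4 naive, n = 5 bleomycin) and the log2 fold change with its standard error.

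**Figure D1:**
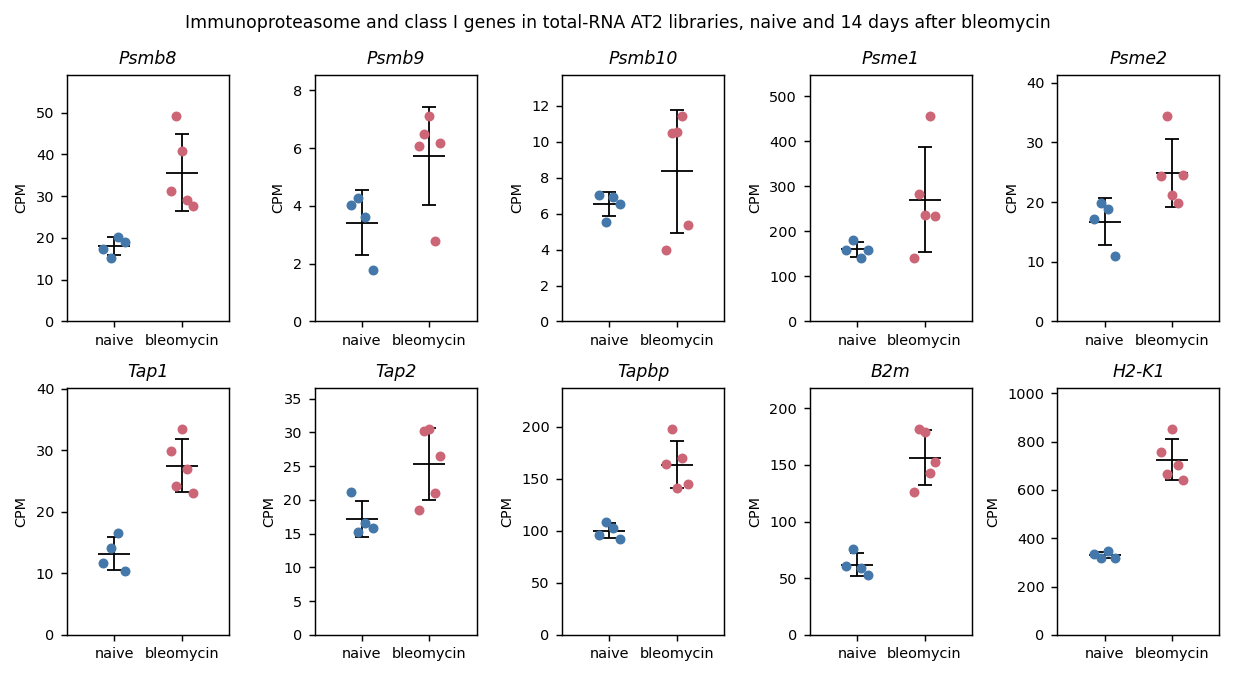
Level of each of the 10 genes (CPM, linear axis from 0) in 4 naive and 5 bleomycin total-RNA libraries, 1 point per library, with the group mean (long bar) and SD (whiskers). The groups are separate for Psmb8, Tap1, Tapbp, B2m and H2-K1 and overlap for the other 5 genes.

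Among the inducible catalytic subunits, Psmb8 (LMP7, chymotrypsin-like activity, on chromosome 17 within the MHC at 34197721 to 34201454, GRCm38, GENCODE M21) was at 17.4, 15.2, 20.1 and 19.1 CPM in the naive libraries. In the bleomycin libraries it was at 31.2, 49.3, 40.9, 29.1 and 27.6 CPM. The groups did not overlap, and bleomycin 2 and 3 were the highest. The means were 17.95 ± 2.16 and 35.6 ± 9.23 CPM, a log2 fold change of 1.00 (adjusted p 0.00152, SE 0.20).

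Psmb9 (LMP2, chromosome 17, 34181987 to 34187764), which takes the place of Psmb6, was at 4.03, 4.27, 3.60 and 1.79 CPM in naive libraries. After bleomycin it was at 6.08, 6.50, 7.12, 2.78 and 6.18 CPM, so 4 of the 5 lay above all naive libraries and bleomycin 4 lay below 3 of them. The fitted change of 0.75 (adjusted p 0.205, SE 0.41, 95% interval -0.10 to 1.60) did not pass. Psmb10 (MECL-1, trypsin-like activity, chromosome 8, 105935735 to 105938444) was at 7.04, 5.56, 6.91 and 6.56 CPM and then at 3.97, 10.5, 10.5, 11.4 and 5.38 CPM. Bleomycin 1 and 5 were below every naive library and the other 3 above, and the change of 0.36 (adjusted p 0.494, SE 0.34, 95% interval -0.36 to 1.08) did not pass. Both genes were sparsely covered, and the intervals leave room for a change as large as that of Psmb8.

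The standard subunits rose as well. Psmb5, which Psmb8 replaces, went from 9.45 ± 1.54 to 17.7 ± 2.63 CPM, a log2 fold change of 0.91 (adjusted p 0.00634, SE 0.22) with no overlap. Psmb6, replaced by Psmb9, changed by 0.53 (adjusted p 0.0165), also without overlap, a call lost without naive 3 (0.0605) or naive 4 (0.0747). Psmb7, replaced by Psmb10, changed by 0.59 (adjusted p 0.045), and this call was lost without any single library but bleomycin 4 or bleomycin 5 (adjusted p 0.0639 to 0.157), with limma-voom (0.0793) and with upper-quartile scaling (0.0535).

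The balance between an inducible subunit and the standard subunit it replaces was measured within each library as a log2 ratio of counts per kilobase of transcript, which needs no library size. The Psmb8 to Psmb5 ratio was 0.07 ± 0.35 in naive and 0.12 ± 0.28 in bleomycin libraries (SD), a difference of 0.06. For Psmb9 to Psmb6 the ratios were -4.18 ± 0.42 and -3.99 ± 0.42, a difference of 0.19. For Psmb10 to Psmb7 they were -2.07 ± 0.24 and -2.38 ± 0.72, a difference of -0.31. All 3 gave an adjusted p of 0.762 in a two-sided exact permutation test with Benjamini-Hochberg adjustment over the 3 pairs, where the smallest unadjusted p possible was 0.0159. No shift towards the inducible subunits was detectable against the spread between libraries, which does not show that the balance stayed the same.

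**Figure D2:**
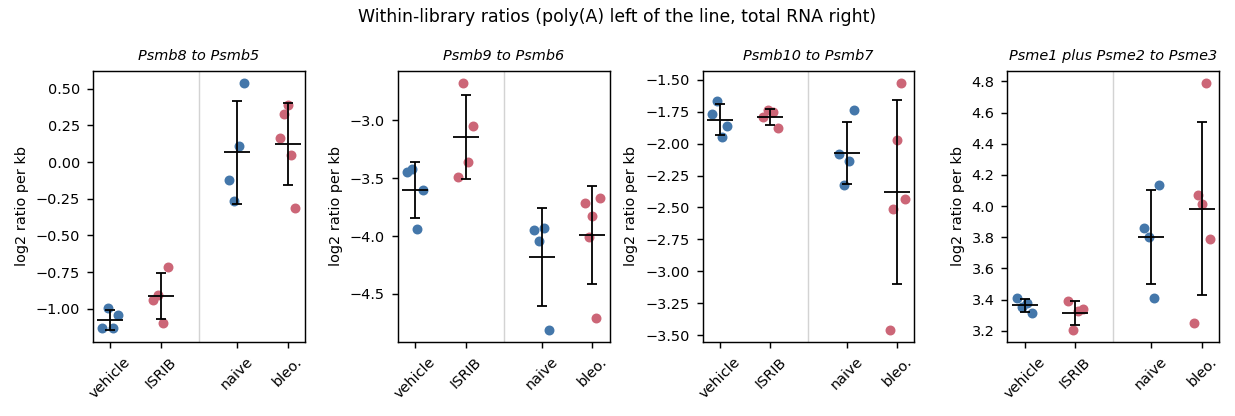
Log2 ratio per kilobase of transcript of each inducible subunit to its standard counterpart, and of PA28 alpha plus beta to PA28 gamma, in every library (points), with group mean and SD. Poly(A) libraries are left of the grey line and total-RNA libraries right of it, the vertical axes differ between panels, and the groups overlap in all 4 panels within each kit.

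The PA28 alpha gene Psme1 (chromosome 14, 55578123 to 55581529) was at 160, 181, 141 and 159 CPM in naive libraries. After bleomycin it was at 141, 284, 236, 457 and 234 CPM. Bleomycin 4 held the highest level and bleomycin 1 lay within the naive range. The means were 160 ± 16.4 and 271 ± 116 CPM, a log2 fold change of 0.75 (adjusted p 0.0214, SE 0.22). The call was lost without naive 1 (adjusted p 0.0569), naive 3 (0.0708) or naive 4 (0.0635) and with DESeq2 (0.0765). Without bleomycin 4, whose level was the highest, the fold change was 0.49, and the gene was still called.

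Psme2 (PA28 beta, chromosome 14, 55587441 to 55591113) was at 17.1, 19.9, 18.9 and 11.03 CPM and then at 24.3, 34.5, 21.2, 19.8 and 24.5 CPM. Only bleomycin 4 fell inside the naive range. The change of 0.57 (adjusted p 0.0675, SE 0.22) did not pass, and passed without bleomycin 4 (0.64, adjusted p 0.0402). Psme2 has a near-identical retrogene copy, Psme2b, so its reads may be split. The ratio of Psme1 plus Psme2 to Psme3, the nuclear activator PA28 gamma, was 3.80 ± 0.30 in naive and 3.98 ± 0.56 in bleomycin libraries, a difference of 0.18 (exact permutation test, two-sided, p 0.635).

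Of the peptide transporter genes, Tap1 (chromosome 17, 34187553 to 34197225) was at 11.7, 14.1, 16.5 and 10.4 CPM in naive libraries. It was at 29.9, 24.2, 33.4, 26.9 and 23.1 CPM after bleomycin. Every bleomycin library was above every naive library. The means of 13.2 ± 2.68 and 27.5 ± 4.23 CPM gave a log2 fold change of 1.05 (adjusted p 9.28e-04, SE 0.20).

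Tap2 (chromosome 17, 34203527 to 34216321), the other chain of the transporter, was at 21.1, 15.2, 16.5 and 15.8 CPM and then at 18.5, 30.1, 30.5, 21.04 and 26.4 CPM. Bleomycin 1 and 4 fell below the highest naive library. The change was 0.58 (adjusted p 0.046, SE 0.20), close to the threshold. It was lost without naive 2, naive 3, naive 4, bleomycin 2, bleomycin 3 or bleomycin 5 (adjusted p 0.0753 to 0.132). It was also lost with upper-quartile scaling (0.0536). Whether Tap1 and Tap2 changed by different amounts was not tested.

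Tapasin (Tapbp, chromosome 17, 33915899 to 33929292) was at 96.3, 108, 103 and 92.1 CPM in naive libraries and at 164, 198, 141, 170 and 145 CPM after bleomycin. The groups did not overlap. Its change of 0.71 (adjusted p 4.55e-04, SE 0.12) had a narrow interval, from 0.45 to 0.96.

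Both chains of the class I molecule rose, with the 2 lowest adjusted p of the 10 genes. B2m (chromosome 2, 122147686 to 122153083) was at 60.7, 76.1, 58.9 and 52.5 CPM in naive libraries. It was at 125.7, 182, 179, 143 and 153 CPM after bleomycin, so even the lowest bleomycin library stood well above the highest naive library. The means of 62.0 ± 10.01 and 156 ± 24.0 CPM gave a log2 fold change of 1.33 (adjusted p 3.74e-06, SE 0.14). H2-K1 (chromosome 17, 33996017 to 34000347), the classical K heavy chain, was at 335, 320, 348 and 320 CPM and then at 759, 667, 853, 705 and 640 CPM. The naive libraries lay close together and all bleomycin libraries were far above them. The means of 331 ± 13.6 and 725 ± 84.4 CPM gave a change of 1.13 (adjusted p 2.85e-06, SE 0.12).

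**Figure D3:**
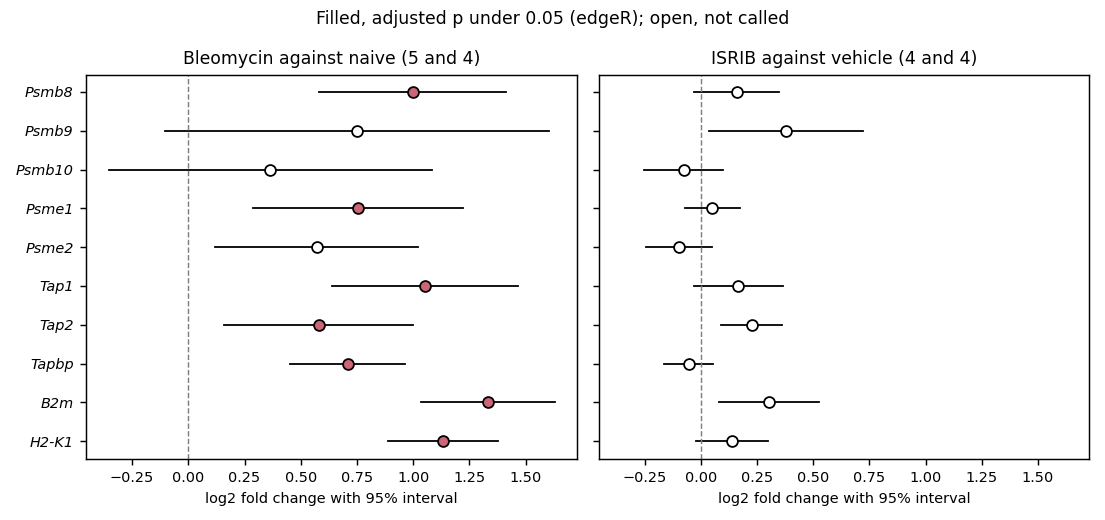
Log2 fold change of the 10 genes (points) with 95% intervals (lines, not adjusted for multiple testing) after bleomycin, left, and after ISRIB, right, on the same horizontal scale. Filled points passed an adjusted p of 0.05 (edgeR), 7 on the left and 0 on the right.

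The order of the genes was read from CPM per kilobase of transcript (GENCODE principal transcript). H2-K1 was highest in all 4 groups, at 204 ± 8.39 CPM per kb in naive, 448 ± 52.2 in bleomycin, 584 ± 23.4 in vehicle and 644 ± 87.4 in ISRIB libraries. Psmb9 was lowest in all 4, at 2.53 ± 0.83, 4.24 ± 1.26, 7.95 ± 1.33 and 10.3 ± 2.57 CPM per kb. The kits differ in RNA selection and input, so levels were compared within a kit only.

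In naive libraries the order of CPM per kb below H2-K1 was Psme1 (144 ± 14.8), B2m (72.1 ± 11.6), Tapbp (34.5 ± 2.46), Psme2 (17.4 ± 4.13), Psmb8 (11.03 ± 1.32), Tap2 (4.98 ± 0.79), Psmb10 (4.97 ± 0.51), Tap1 (4.47 ± 0.91) and Psmb9. Neighbours whose ranges overlapped were Psme2 with Psmb8, Tap2 with Psmb10, and Psmb10 with Tap1. In bleomycin libraries the ranges of H2-K1 and Psme1 overlapped, as did those of Psme1 and B2m, of Psme2 and Psmb8, and of each neighbouring pair from Tap1 through Tap2 and Psmb10 to Psmb9.

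In vehicle libraries B2m (234 ± 25.8 CPM per kb) stood second, followed by Psme1 (123 ± 5.12), Tapbp (91.9 ± 4.34) and Psme2 (61.8 ± 3.02). Psmb10 (18.9 ± 1.54) and Psmb8 (18.7 ± 0.80) overlapped each other, as did Tap1 (9.65 ± 0.76) and Psmb9, and Tap2 (11.8 ± 0.52) lay between those pairs. The standard subunits were more abundant per kb there, with Psmb6 at 95.8 ± 2.51, Psmb7 at 66.3 ± 1.45 and Psmb5 at 39.4 ± 1.86 CPM per kb. Transcript models set part of this order. In a check chosen after the data were seen, with the length of all exon blocks in place of the principal transcript, Tapbp moved above Psme1 and Tap2 above Psmb8 in vehicle libraries, while H2-K1 stayed highest and Psmb9 lowest in all 4 groups. With that length, Psme1 (72.4 ± 7.44 CPM per kb) was level with B2m (72.1 ± 11.6) in naive libraries. In bleomycin libraries B2m (182 ± 27.9) moved above Psme1 (122.5 ± 52.7), and Tap2 above Tap1.

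The other genes of the route were read from 6 lists. Of 16 other class I heavy chains, 9 had enough counts to be tested, and 6 were called higher after bleomycin and 0 lower, with a median of 0.96. H2-D1, the classical D heavy chain, went from 323 ± 19.0 to 692 ± 78.3 CPM, a change of 1.10 (adjusted p 3.99e-06, SE 0.12), close in size to that of H2-K1. The Qa-2 genes H2-Q7 (2.88, adjusted p 1.14e-06) and H2-Q6 (2.15, adjusted p 8.34e-06) changed most. H2-Q7 was at 1.68 to 3.60 CPM in naive and at 17.7 to 23.01 CPM in bleomycin libraries. H2-T22 (0.96) and H2-Q4 (0.75) were also called higher, and the sixth was Mr1 (1.98, adjusted p 0.0163), which presents microbial vitamin B metabolites and falls outside the naming rule, so it was chosen after its values were seen. Limma-voom did not call Mr1. Class I heavy chains are near-identical paralogs, so reads may be split between H2-K1, H2-D1 and the H2-Q genes.

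Of 12 other loading genes, 4 were called higher and 1 lower. Calreticulin (Calr), a chaperone of the peptide-loading complex, went from 412 ± 25.5 to 895 ± 230 CPM, a log2 fold change of 1.12 (adjusted p 6.77e-05, SE 0.16). Pdia3 (ERp57), the disulfide isomerase bound to tapasin, changed by 0.59 (adjusted p 0.00113), and Ide, an insulin-degrading metalloprotease, by 0.77 (adjusted p 0.00559). Canx (calnexin, 0.43) also passed and falls outside the naming rule. Lnpep, an aminopeptidase of endosomal cross-presentation, was the 1 gene called lower (-0.45, adjusted p 0.0105), with every bleomycin library below every naive library.

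All 3 standard catalytic subunits and 4 of 16 other core and assembly genes (Psma4, Psma7, Psmb1 and Pomp, named after their values were seen) were called higher. The median of those 16 was 0.39. Of the 3 other activator genes, Psme3 (0.46, adjusted p 0.0415) and Psme4 (0.36, outside the naming rule) passed. The Psme3 call was lost without bleomycin 2 (adjusted p 0.071), bleomycin 5 (0.0739), naive 1 (0.109), naive 2 (0.0531) or naive 4 (0.171), without the filter on low counts (0.0532) and with a replicate block (0.081).

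Of 18 regulators, 16 were tested, and 4 were called higher and 0 lower, with a median of 0.14. The interferon-gamma receptor chain Ifngr2 went from 18.9 ± 4.66 to 35.9 ± 8.31 CPM, a change of 0.93 (adjusted p 0.00395, SE 0.21). Socs3, a feedback inhibitor of cytokine signalling, changed by 0.63 (adjusted p 0.00645). Irf9 (0.56) and the type I receptor chain Ifnar1 (0.42) also passed and fall outside the naming rule. Rfxank, also outside the rule, was lower in every bleomycin library than in any naive library. Its change of -0.80 (SE 0.30, adjusted p 0.0673) did not pass with edgeR, while DESeq2 called 1 regulator lower.

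Irf1, an interferon regulatory factor, and the transactivator Nlrc5 gave no call. Irf1 was at 43.1 ± 7.16 CPM in naive and 45.7 ± 5.50 CPM in bleomycin libraries, a change of 0.09 (adjusted p 0.726, SE 0.15). For Nlrc5 the levels were 4.12 ± 1.97 and 7.06 ± 3.504 CPM (0.72, SE 0.44, adjusted p 0.263), and bleomycin 4 alone reached 12.995 CPM.

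**Figure D4:**
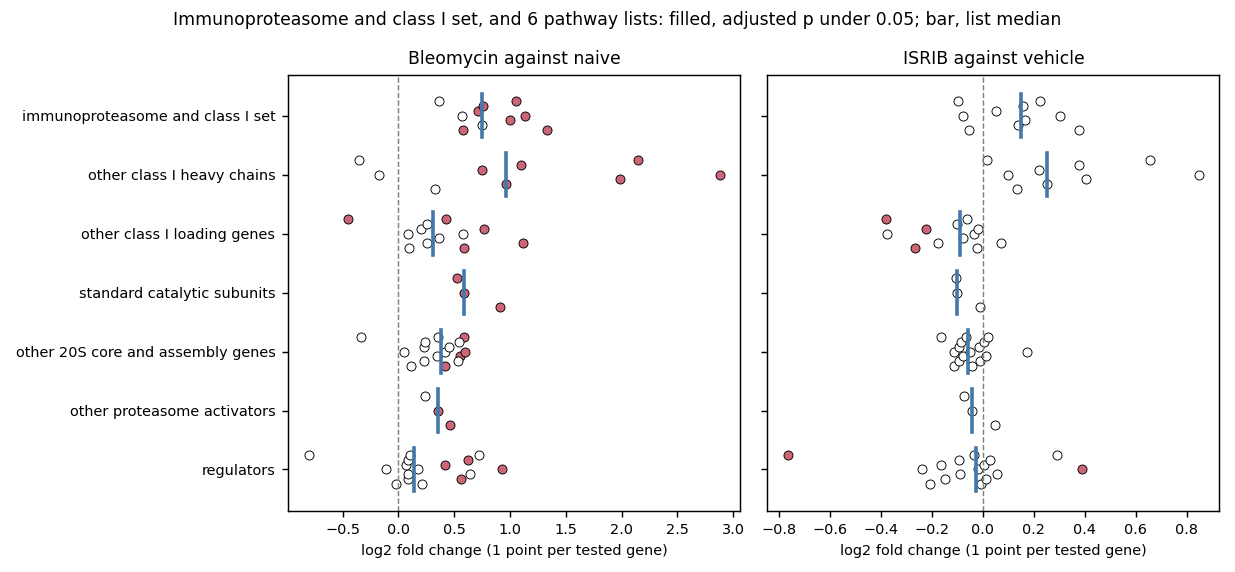
Log2 fold change of each tested gene (points, 1 per gene) in the set of 10 and in 6 lists of related genes, after bleomycin (left) and ISRIB (right), whose horizontal scales differ. Filled points passed an adjusted p of 0.05 (edgeR) and the bar is the list median, which is above 0 for all 7 rows on the left and for the set of 10 and the other heavy chains on the right.

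Leukocytes express these genes strongly, so markers of other cells were read in the same libraries. The summed level of 5 general leukocyte markers was 0.298 to 2.01 CPM in naive and 0.902 to 3.17 CPM in bleomycin libraries. The 13 macrophage and monocyte markers summed to 10.8 to 15.8 and 8.87 to 14.6 CPM, with C1qa and Marco at 0 counts in both groups. The 3 with enough counts to be tested were Ly6c2 (means 4.56 and 3.66 CPM), Cd68 (3.35 and 4.28) and Csf1r (2.73 and 2.04). None of them was called. The 13 lymphocyte markers summed to 2.68 to 8.97 and 1.32 to 9.59 CPM, with Cd3d at 0 in both groups and Cd3e at 0 in all but bleomycin 5. Most of the lymphocyte sum came from the B cell receptor gene Cd79b (means 5.15 and 5.96 CPM), which was not called. The other B cell markers listed were near absent, with Cd79a at 2 counts in each group and Ms4a1 at 0. The 5 neutrophil markers summed to 0 to 0.601 and 0 to 1.80 CPM.

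Other markers moved with bleomycin. The 6 fibroblast markers summed to 3.87 to 10.1 CPM in naive and 17.5 to 115 CPM in bleomycin libraries, with the highest sums in bleomycin 2 (115) and bleomycin 1 (54.5), and 3 of 3 tested were called higher. Of the AT1 (flat alveolar cell) markers, 6 of 7 were called higher, with sums of 1086 to 1313 and 1733 to 2295 CPM. The 7 endothelial markers summed to 19.97 to 27.9 and 22.5 to 79.5 CPM, with 2 of 5 tested called higher. The 6 airway markers summed to 447 to 906 and 479 to 916 CPM, with 1 of 5 tested (Foxj1) called higher. The 9 AT2 markers summed to 78088 to 85400 and 47120 to 83193 CPM, lowest in bleomycin 1 and 2. With bleomycin 1 and 2 left out together, a check chosen after the data were seen, the same 7 genes were called, B2m at 1.35 and H2-K1 at 1.15, while Psmb7 and Psme3 were no longer called. In bulk libraries, fewer cells of a type and less RNA per cell cannot be told apart, and the part of these other cells in the changes was not tested further.

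The ISRIB comparison asked whether a day of treatment alters AT2 cells without injury. None of the 10 genes passed the test (0 of 10 with edgeR, DESeq2 and limma-voom), against 1.10% of 12054 genes called higher and 1.10% called lower. Unadjusted, 3 genes had a p under 0.05 (Tap2, B2m and Psmb9), against 16.04% of all genes. The fitted changes ran from -0.10 for Psme2 to 0.38 for Psmb9 with a median of 0.15, and 7 were above 0, while the median of all genes was -0.00014. For 1 of the 10 genes, Tap2, the lowest ISRIB library was above the highest vehicle one, against 4.26% of all genes tested.

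**Figure D5:**
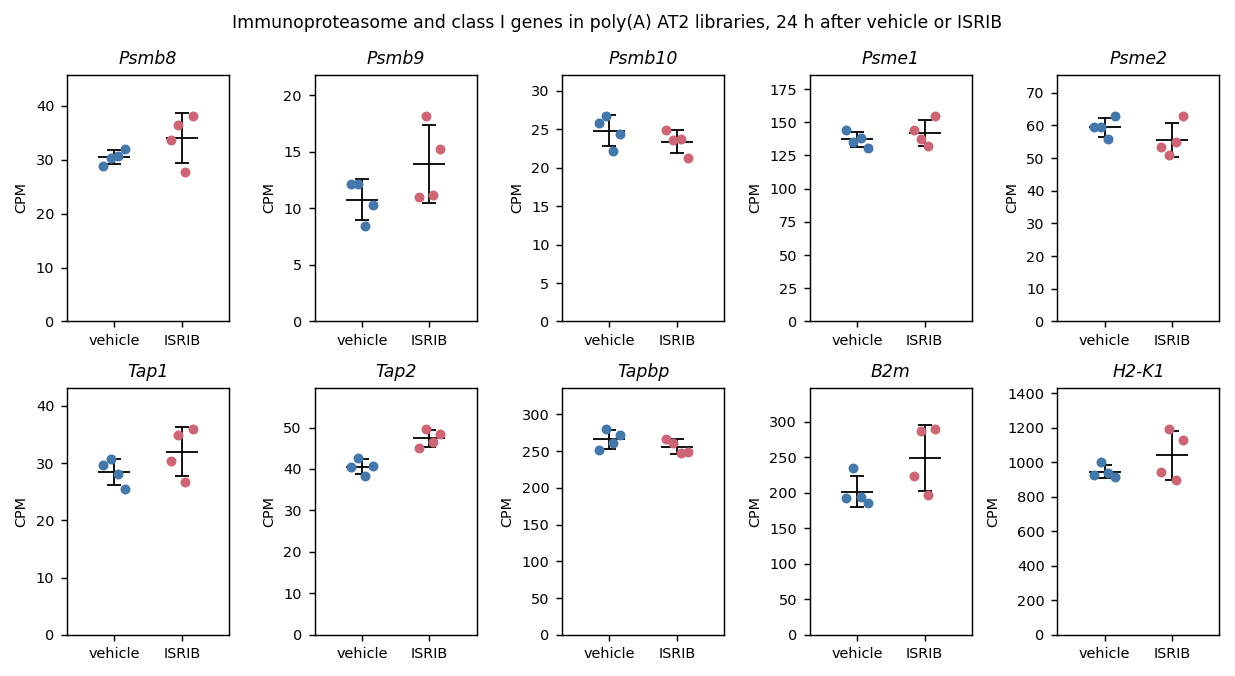
Level of each of the 10 genes (CPM, linear axis from 0) in 4 vehicle and 4 ISRIB poly(A) libraries, 1 point per library, with the group mean (long bar) and SD (whiskers). The groups are separate for Tap2, and for B2m, H2-K1 and Psmb9 the ISRIB points form a higher and a lower pair.

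Tap2 was at 40.5, 42.7, 38.4 and 40.7 CPM in vehicle libraries and at 44.95, 49.7, 46.4 and 48.5 CPM in ISRIB libraries. The gap between the groups was small, and the change of 0.23 (SE 0.06, 95% interval 0.09 to 0.36) had an adjusted p of 0.0803. B2m was at 192, 235, 194 and 186 CPM and then at 223, 286, 196 and 290 CPM. ISRIB 2 and 4 were above all vehicle libraries, ISRIB 1 and 3 were not, and the change of 0.30 (SE 0.10) had an adjusted p of 0.152. B2m passed without ISRIB 3 (0.40, adjusted p 0.0421) and without the filter on low counts (0.30, adjusted p 6.82e-05). The unfiltered run fitted 22120 genes in place of 12054 and left the B2m fold change nearly the same. Why its adjusted p was so much lower was not tested.

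The same pair of libraries stood high for other genes of the set. H2-K1 was at 928, 1001, 939 and 916 CPM after vehicle and at 946, 1194, 899 and 1128 CPM after ISRIB, a change of 0.14 (adjusted p 0.390, SE 0.08). Psmb9 was at 12.2, 12.1, 8.39 and 10.3 CPM and then at 10.98, 18.2, 11.2 and 15.3 CPM, a change of 0.38 (adjusted p 0.263, SE 0.16). Averaged over the 10 genes relative to vehicle on the log2 scale, ISRIB 2 (0.21) and ISRIB 4 (0.22) stood above ISRIB 1 (0.05) and ISRIB 3 (-0.04). Vehicle libraries ranged from -0.07 to 0.08.

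This split was not limited to the set. Over all genes, the chi-square per degree of freedom between the counts of 2 libraries was 7.86 to 9.07 across the 2 pairs of ISRIB libraries, 3.53 between ISRIB 1 and 3, 4.41 between ISRIB 2 and 4, and 3.69 to 5.84 among vehicle libraries. ISRIB 2 and 4 also held the lowest summed AT2 markers (172470 and 174360 CPM, against 180880 to 185560 in the other libraries) and the least Sftpc, the surfactant protein gene that marks AT2 cells (99811 and 99510 CPM, against 107240 to 111300). The airway club cell gene Scgb1a1 was likewise lower there (2742 and 1956 CPM, against 3252 to 3643), and the part of these differences in the result was not tested. With ISRIB 2 and 4 left out together, a check chosen after the data were seen, 0 of the 10 genes were called, B2m changed by 0.06, Psmb9 by 0.06, Tap2 by 0.17 and H2-K1 by -0.03. ISRIB 2 and 4 were the highest ISRIB libraries for these 4 genes, so smaller changes without them were fixed by the choice. The check therefore cannot tell whether the changes are real.

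For the other 6 genes, Psmb8 (0.16), Tap1 (0.17), Psme1 (0.05), Tapbp (-0.05), Psme2 (-0.10) and Psmb10 (-0.08), no interval excluded 0. Their 95% intervals ran from -0.16 to 0.06 for Tapbp and -0.07 to 0.17 for Psme1, up to -0.03 to 0.35 for Psmb8 and -0.03 to 0.36 for Tap1. The within-library ratios changed by 0.16 (Psmb8 to Psmb5), 0.46 (Psmb9 to Psmb6) and 0.02 (Psmb10 to Psmb7), with adjusted p of 0.171, 0.171 and 0.771 (exact permutation test, two-sided, smallest unadjusted p possible 0.0286). The PA28 ratio changed by -0.05 (exact permutation test, p 0.371).

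Several partners in the endoplasmic reticulum fell after ISRIB. Of the 12 other loading genes, 3 were called lower and 0 higher. Calr was at 661, 559, 585 and 637 CPM after vehicle and at 456, 484, 450 and 489 CPM after ISRIB. The groups did not overlap, and the change was -0.38 (adjusted p 0.00359, SE 0.06). Pdia3 (-0.22, adjusted p 0.0338) and Sec61b (-0.27, adjusted p 0.043), a subunit of the translocation channel, were also lower in every ISRIB library. The Pdia3 call was lost without any single library but vehicle 3 (adjusted p 0.052 to 0.127), and the Sec61b call likewise (0.0525 to 0.139), and both with ISRIB 2 and 4 left out together (0.0631 and 0.197).

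Of the regulators, Socs3 fell from 102 ± 21.1 to 60.2 ± 2.11 CPM, a change of -0.76 (adjusted p 0.00121, SE 0.10). Irf2, an interferon regulatory factor, rose from 60.6 ± 6.09 to 79.2 ± 6.74 CPM (0.39, SE 0.08, adjusted p 0.0137), a call lost without vehicle 1 (0.0556) or vehicle 2 (0.0541). Irf1 (-0.15, adjusted p 0.385) and Nlrc5 (0.01, adjusted p 0.997, at 1.21 CPM after vehicle and 1.22 CPM after ISRIB) did not pass.

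The other heavy chains all had fitted changes above 0 (9 of 9 tested, median 0.25), against 6023 of all 12054 genes. None was called with edgeR, while 4 had an unadjusted p under 0.05, against 16.04% of all genes. DESeq2 called 1, against 3.38% of all genes in either direction. Reads may be split between these paralogs, so the 9 are not independent. H2-D1 changed by 0.13 (adjusted p 0.388, SE 0.07), again with ISRIB 2 and 4 highest (1091 and 1068 CPM). ISRIB 2 and 4 were also the highest libraries for H2-Q4, H2-Q6 and H2-Q7, which were named here after their values were seen. No standard catalytic subunit, other core or assembly gene or other activator was called or had an unadjusted p under 0.05 with edgeR, DESeq2 or limma-voom. Psmb5 (-0.01), Psmb6 (-0.10) and Psmb7 (-0.10) had adjusted p of 0.960, 0.385 and 0.385, and Psme3 (0.05) of 0.777.

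The 5 general leukocyte markers summed to 0.291 to 0.701 CPM in vehicle and 0.160 to 0.626 CPM in ISRIB libraries. The 13 macrophage and monocyte markers summed to 22.7 to 33.7 and 26.5 to 28.7 CPM, with C1qa and Fcgr1 at 0 counts in both groups. Of these, the macrophage gene Chil3 was called lower after ISRIB (1.24 ± 0.244 and 0.349 ± 0.277 CPM, -1.84, SE 0.47, adjusted p 0.0440), a call lost without any single library but ISRIB 3 (0.0736 to 0.123) and with a replicate block (0.0705). Chil3 had 59 counts over the vehicle and 17 over the ISRIB libraries. The other tested markers of this list were not called. They were Ly6c2 (0.02, means 19.3 and 19.6 CPM, most of the sum), Cd68 (0.12) and Csf1r (-0.06). The 13 lymphocyte markers summed to 18.6 to 20.98 and 15.8 to 17.4 CPM, nearly all of it from the B cell receptor gene Cd79b (19.9 ± 1.004 and 16.5 ± 0.771 CPM, without overlap, -0.27, SE 0.08, adjusted p 0.112), with Cd3d and Cd3e at 0. The other B cell markers listed were near absent. Cd79a had 1 count over the vehicle and 5 over the ISRIB libraries, and Ms4a1 had 0. The 5 neutrophil markers summed to 0.181 to 0.526 and 0.0877 to 0.641 CPM. Chil3, Cd79a, Cd79b and Ms4a1 were named after their values were seen, and the part of these markers in the results was not tested.

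How far the genes move together beyond the group difference was described by Pearson's r of log2 CPM after the group means were removed, over the libraries of a kit, which share depth and scaling. Over the 45 pairs of genes the median r was 0.30 in the 8 poly(A) libraries (-0.41 to 0.95) and 0.21 in the 9 total-RNA libraries (-0.51 to 0.77). In the poly(A) libraries 5 pairs exceeded 0.8, B2m with H2-K1 (0.95), Tap1 with B2m (0.93), Psmb9 with Tap2 (0.90), Tap1 with H2-K1 (0.88) and Psmb9 with H2-K1 (0.83). No pair exceeded 0.8 in the total-RNA libraries, where the lowest was Psmb9 with Psme1 (-0.51).

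The genes outside the set whose log2 CPM was most like the average profile of the 10 were found separately in each kit. In the poly(A) libraries they were H2-Q6 (r = 0.98), Ctsz (0.97), Unc119 (0.97), H2-Q4 (0.97) and Plet1 (0.97), out of 8051 genes over 8 libraries. H2-Q6 and H2-Q4 are themselves class I heavy chains, and Ctsz is a lysosomal cathepsin. In the total-RNA libraries they were Bcam (0.99), Crip2 (0.99), Atp5b (0.99), Ctsb (0.98) and Taldo1 (0.98), out of 7685 genes over 9 libraries. These r include the group difference and, in the poly(A) libraries, the split among ISRIB libraries, and are descriptions of few libraries.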

How the data were processed

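The authors deposited unnormalised read counts per gene, 1 table per kit. The submitters' processing notes name bcl2fastq 2.19.1, FastQC, Trimmomatic 0.36, STAR 2.6.0, HTSeq 0.11.2 and mm10. The sources used here give neither annotation nor strand setting. It is therefore not known whether reads were told apart where exons overlap on opposite strands, as for Psmb9 with Tap1 (212 bp), Psmb8, Tap2, Tapbp, Psmb7, H2-Q4 and H2-T22.

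Symbols and positions came from GENCODE M21 by gene ID (42462 IDs had a symbol). Each comparison was fitted alone. Counts were filtered (filterByExpr, minimum count 10, minimum total 15), TMM-scaled and tested in edgeR 4.0.16 (R 4.3.3, quasi-likelihood F test, two-sided), adjusted by Benjamini-Hochberg over all genes tested, and called at an adjusted p under 0.05. All 10 genes passed the filter in both comparisons. The SE is the absolute log2 fold change, refitted without a prior count (a small addition that shrinks fold changes), over the root of F. Intervals are centred on the printed log2 fold change. Ratios used counts plus 0.5. DESeq2 1.42.0 and limma 3.58.1 were alternatives. Libraries held 10493574 to 15727139 (poly(A)) and 3295257 to 6333166 counts (total RNA).

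The fits were also run on simulated data. The genes, the 6 lists of related genes and the 9 marker lists were chosen with earlier results of these data known. Named genes were the 10, up to 12 called genes of the 6 lists with the lowest p in each comparison, 7 partner genes whatever their result (1 more, and 1 set of promoter letters, are not reported here), and the 5 most alike genes. Most alike genes needed a mean of 10 CPM.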

Additional observations from a re-analysis of the deposited data

Results flagged for a closer look

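Of 98 groups of 4 or 5 libraries examined for a library far from the rest, 3 held one by Dixon's criterion, and chance alone gives about 1 in 20. Psmb9 in bleomycin 4 was at 2.78 CPM while the other bleomycin libraries lay between 6.08 and 7.12 CPM. Psmb5 in naive 4 was at 7.15 CPM while the other naive libraries lay between 10.04 and 10.4 CPM. Irf2 in vehicle 4 was at 69.7 CPM while the other vehicle libraries lay between 56.7 and 58.2 CPM.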

How the results depend on the processing

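After bleomycin the number of the 10 genes called was 7 and lay between 5 and 8 when single libraries were left out, with B2m, H2-K1, Tap1, Psmb8 and Tapbp called under every alternative run. After ISRIB it was 0, and 1 (B2m) without the filter on low counts, and 0 to 1 when single libraries were left out. The replicate numbers did not pair the samples (correlations of same-numbered libraries -0.12 to 0.105 and -0.0455 to 0.0722). With a replicate block, 6 genes were called after bleomycin (Tap2 at 0.54, adjusted p 0.106) and 0 after ISRIB, and Sec61b was lost after ISRIB (adjusted p 0.0702). Of 975 values recomputed under an alternative, 899 kept their direction and their side of the threshold or, for counts, stayed within 1.5 times, and the cause of the other changes was not tested. With a minimum count of 50, Psmb9 and Psmb10 after bleomycin and Nlrc5 in both comparisons had too few counts to give a value. Some uncalled values changed sign. The Psmb9 to Psmb6 difference after bleomycin became -0.011 with a pseudocount of 5 and ran from -0.015 to 0.37 when single libraries were left out. The Psmb8 to Psmb5 difference then ran from -0.054 to 0.21, that of PA28 from -0.0196 to 0.37, and that of Psmb10 to Psmb7 after ISRIB from -0.024 to 0.071. After ISRIB, Nlrc5 became -0.092 with limma-voom, -0.00171 with upper-quartile factors and -0.037 with the replicate block, and ran from -0.24 to 0.18 when single libraries were left out, as Psmb5 did from -0.046 to 0.022. With ISRIB 2 and 4 left out together, a setting chosen after the data were seen, H2-K1 became -0.034, H2-D1 -0.0313, Psme3 -0.0317 and Nlrc5 -0.56, and Pdia3 (adjusted p 0.0631) and Sec61b (0.197) were no longer called. ISRIB 2 and 4 were the highest ISRIB libraries for H2-K1, H2-D1, Psme3 and Nlrc5, so lower values of these genes without them were fixed by the choice.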
